A study of Homo sapiens with 8 samples.

Results

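The genes described here encode the proteins of the mitochondrial ribosome. They were chosen by symbol alone, as every gene whose symbol is MRPL or MRPS, a number and, for some, a letter from A to C, which gave 78 of the 19414 coding genes in the deposited values. Of these, 49 are named MRPL, for the large subunit, and 29 MRPS, for the small subunit, and 45 of the 78 have a relative in the bacterial ribosome while 33 are known from mitochondria only. All 78 passed the filter on low reads, as did 11985 genes in all. The measurements are TT-seq, which reads RNA that took up the base analogue 4-thiouridine (4-SU) while it was being made, from U2OS, a human osteosarcoma cell line. There were 8 libraries in 4 groups of 2, all of them U2OS and all labelled with 4-SU. The groups are called here MYC_Zab (Zab together with MYC overexpression), MYC (MYC overexpression), Zab and WT. The labels do not say what the Zab construct is, how MYC was overexpressed, or whether the 2 replicates of a group were grown apart. The p-values below therefore speak of the spread from library to library and of nothing beyond it, and that spread may be technical.

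The mitochondrial ribosome translates the few messages of the mitochondrial genome, all of which code for subunits of oxidative phosphorylation. Its ribosomal RNAs come from mitochondrial DNA, whereas its proteins are encoded in the nucleus, made in the cytosol and imported. MYC is a transcription factor that pairs with MAX on the E-box CACGTG and is known to raise genes of ribosome production and mitochondrial function. Z-DNA is a double helix wound to the left, and FACT, named with MYC in the title of the series, is a histone chaperone. In bulk samples, fewer cells that make an RNA and less of it per cell cannot be told apart.

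The libraries did not all show what their labels say. In CPM, which divides the reads of a gene by those of the library in coding exons, TMM-scaled, MYC averaged 757 ± 14.8 in MYC_Zab, 6568 ± 8.29 in MYC, 981 ± 68.7 in Zab and 760 ± 17.5 in WT (SD, n = 2 each), so a high level went with the label MYC alone. ADAR edits RNA and carries paired domains that bind Z-nucleic acids, for which Zab is a usual name. It averaged 32109 ± 67.8 in MYC_Zab, 453 ± 12.3 in MYC, 551 ± 33.4 in Zab and 33735 ± 31.7 in WT. A high ADAR level therefore went with the labels MYC_Zab and WT, and not with Zab. Each group below is the set of libraries that carries that label. Libraries held between 1839960 and 4072059 recovered reads, and Zab had 6.55 coding reads per 100 tags, against 13.1 to 13.7 in the other groups. Of the bone markers, SPARC and COL1A1 were at 185 CPM or more in every library, SP7 was at 0 and COL1A2 reached 1.20 CPM at most. The highest of the 4 blood markers reached 1.03 CPM in any library. Marker levels moved with the groups: the 6 mesenchymal markers summed to 2204 to 2234 CPM in MYC, against 3351 to 3507 in WT, the 8 bone markers to 547 to 566 in MYC, against 859 to 870 in WT, and the 6 epithelial markers to 2383 to 2518 in Zab, against 1362 to 1395 in WT. FN1, of the mesenchymal list, averaged 60.6 CPM in MYC and 413 CPM in WT. Single markers did not all follow these sums. THY1 and S100A4, also mesenchymal, averaged 172 and 14.5 CPM in MYC, against 121 and 10.9 in WT. RUNX2, of the bone list, averaged 31.3 CPM in MYC and 8.58 in WT. In Zab, KRT8 and KRT18 averaged 889 and 1557 CPM, against 558 and 813 in WT. EPCAM and CDH1, of the same epithelial list, were at 0 in Zab, against 2.36 and 2.10 CPM in WT. The part of these differences in the results below was not tested.

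Promoter sequences are shown for the genes with the largest called rise and fall in MYC over WT (MRPS34, MRPL24) and in Zab over WT (MRPL12, MRPL1), so that the start of each can be read beside its values. They are from RefSeq, build GRCh38.p14, and run from 250 bases before the annotated start to 50 bases after it. Capitals mark a searched motif.

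MRPS34, chr16:1773085-1773384, minus strand:
MRPS34: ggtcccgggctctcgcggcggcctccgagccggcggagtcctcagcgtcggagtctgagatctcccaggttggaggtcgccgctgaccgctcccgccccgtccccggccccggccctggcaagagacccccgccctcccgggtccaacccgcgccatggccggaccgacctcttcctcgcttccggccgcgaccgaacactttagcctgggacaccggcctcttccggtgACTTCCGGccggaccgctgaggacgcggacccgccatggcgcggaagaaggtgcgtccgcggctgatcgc

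MRPL24, chr1:156741039-156741338, minus strand:
MRPL24: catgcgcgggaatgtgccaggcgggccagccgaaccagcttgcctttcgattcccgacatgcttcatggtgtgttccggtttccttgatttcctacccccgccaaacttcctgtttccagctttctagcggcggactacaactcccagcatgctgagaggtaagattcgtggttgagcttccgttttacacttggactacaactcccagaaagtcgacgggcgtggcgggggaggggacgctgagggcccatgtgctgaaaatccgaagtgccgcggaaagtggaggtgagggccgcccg

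MRPL12, chr17:81703117-81703416, plus strand:
MRPL12: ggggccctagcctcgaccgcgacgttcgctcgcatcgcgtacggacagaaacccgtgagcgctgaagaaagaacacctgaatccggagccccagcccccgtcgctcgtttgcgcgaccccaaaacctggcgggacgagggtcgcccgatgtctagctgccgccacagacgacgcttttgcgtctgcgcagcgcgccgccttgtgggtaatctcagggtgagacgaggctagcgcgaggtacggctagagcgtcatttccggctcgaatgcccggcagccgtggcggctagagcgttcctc

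MRPL1, chr4:77862580-77862879, plus strand:
MRPL1: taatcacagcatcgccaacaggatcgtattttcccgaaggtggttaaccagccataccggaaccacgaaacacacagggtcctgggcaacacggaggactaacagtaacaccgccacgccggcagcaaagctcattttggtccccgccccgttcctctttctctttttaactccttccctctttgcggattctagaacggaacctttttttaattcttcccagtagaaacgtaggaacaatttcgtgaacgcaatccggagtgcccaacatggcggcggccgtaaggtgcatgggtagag

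The capitals in MRPS34 are the reverse complement of CCGGAAGT, a core of sites for ETS factors. The other 3 windows hold none of the 4 motifs searched, which were CACGTG (the E-box), GCGCATGC (part of the NRF1 site), CCGGAAGT (ETS) and AAGATGGC (the core of YY1 sites), on both strands. None of the 4 contains another. A match is a description of the letters and not a bound site.

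Promoters could be matched for 69 of the 78 genes. AAGATGGC was in 20 of them (29.0%), against 3.03% of all 27305 promoters in the table and 5.59% of those of the tested genes. CCGGAAGT was in 11 (15.9%, against 9.34% of tested genes), GCGCATGC in 6 (8.70%, against 5.67%) and CACGTG in 6 (8.70%, against 10.3%). The E-box was thus no more frequent here than in the promoters of all tested genes. Among the genes with AAGATGGC, 11 of 20 were called higher and 0 lower in MYC over WT, with a median log2 change of 0.47, and among those without it 15 of 49 were called higher and 3 lower, with a median of 0.21. Among the 6 with an E-box 2 were called higher and 0 lower, with a median of 0.32. Over all 11985 genes tested, with or without a motif, 22.2% were called higher and 21.8% lower. Calls of other genes with AAGATGGC are not given here, and the differences between genes with and without a motif were not tested. Stretches of 20 bases around AAGATGGC are shown for 9 of the genes named below that hold it, shown because this motif was the most frequent of the 4, read along the strand that carries the motif, with the motif in capitals.

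MRPS27: cgctccAAGATGGCtgcctc
MRPS18A: tttttgAAGATGGCggccct
MRPS18B: tacgtcAAGATGGCggcgtc
MRPS24: tggcccAAGATGGCggcctc
MRPL42: tgaaacAAGATGGCgggttc
MRPL50: tcatcgAAGATGGCggcgcg
MRPL51: aggcccAAGATGGCtgtctt
MRPS12: cggtccAAGATGGCtgcgtc
MRPL32: cgggtaAAGATGGCggagcg

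In the first 7 the motif lies on the strand of the gene, between 8 and 23 bases past the annotated start. In MRPS12 and MRPL32 it lies on the other strand, at -212 and -222 from the annotated start. Both have a neighbour on that other strand, SARS2 and PSMA2, whose start in hg19 is 191 and 202 bases from theirs. To which of the starts the motif belongs was not tested. Of all 20 genes with the motif, 15 have it on their own strand just past the start, from 6 to 35 bases in.

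The genes lie on 21 chromosomes and are short. Their median span was 8.41 kb, from 0.677 to 112 kb, against 29.4 kb for all tested genes, and the median counted transcript was 1324 bases, against 3518. Mean levels over the 8 libraries ran from 16.1 to 183 CPM with a median of 55.8, which rested on 5 to 968 recovered reads per gene and library. Per kb of counted transcript the median was 49.0 CPM, between the 9.40 of all tested genes and the 587 of the genes for cytosolic ribosomal proteins. The highest per kb were MRPL12, MRPS24, MRPS34, MRPL24 and MRPL37, at 141, 136, 130, 127 and 115 CPM per kb. The lowest were MRPL42, MRPS33 and MRPL50, at 1.63, 4.18 and 7.68 CPM per kb, on counted transcripts of 15546, 4292 and 3333 bases.

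Summed over the 78 genes, the level was 4697 and 4667 CPM in MYC_Zab, 6449 and 6376 in MYC, 5364 and 5190 in Zab and 4932 and 4967 in WT. Relative to WT the sum was 0.946 in MYC_Zab, 1.30 in MYC and 1.07 in Zab. The sum of the MRPS genes stood higher in MYC, at 1.44 times WT, than that of the MRPL genes, at 1.20 times. Gene by gene, the median log2 change in MYC over WT was 0.32 in both sets. The cytosolic ribosomal protein genes summed to 0.937 times WT in MYC_Zab, 0.946 times in MYC and 1.21 times in Zab. CPM sets each library against its own total; on the values as deposited, whose scale per library is not explained in the sources used here, the sums of the 78 were 1.15, 1.83 and 0.686 times WT in MYC_Zab, MYC and Zab, and those of the cytosolic genes 1.14, 1.33 and 0.781 times WT.

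**Figure D1:**
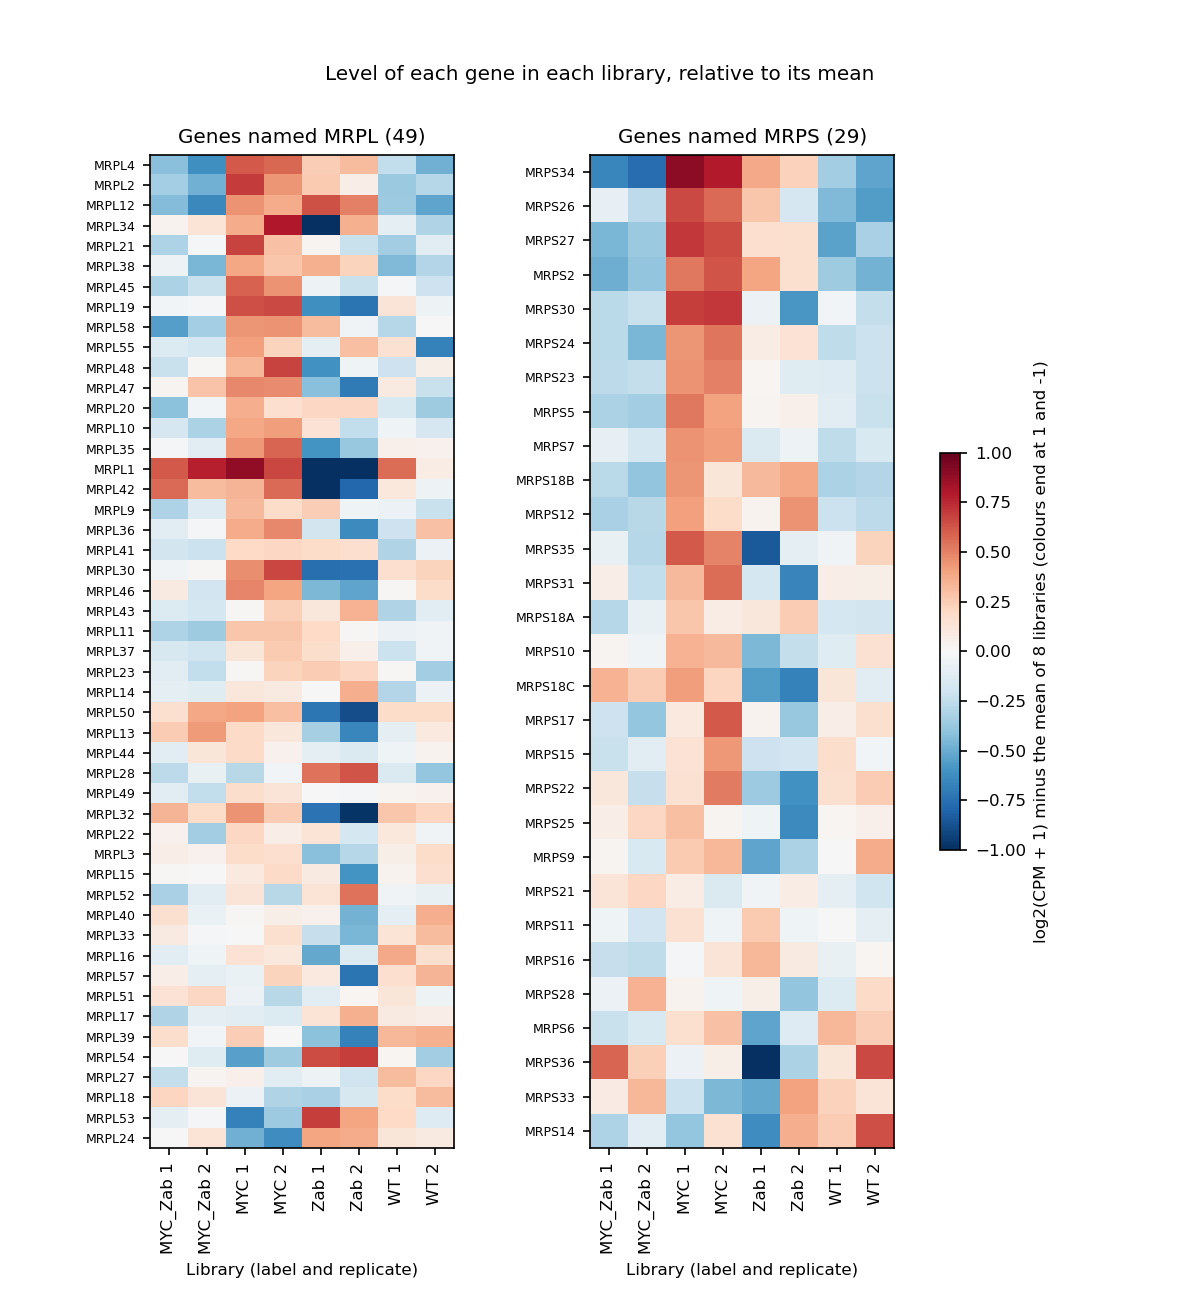
Level of each of the 78 genes (rows, ordered by the change in MYC over WT) in each of the 8 libraries (columns), as log2(CPM + 1) minus the mean of the gene over the 8 libraries, for the 49 MRPL genes and the 29 MRPS genes. The MYC columns are mostly red, most of all in the MRPS panel, the Zab columns hold both strong red and strong blue, and the MYC_Zab and WT columns look alike.

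By its labels the first comparison asks how newly made RNA of these genes differed with MYC overexpression. ADAR differed as well, at 453 CPM in MYC and 33735 in WT, so the parts of MYC and ADAR cannot be told apart in it. Many of the 78 genes rose and few fell. In MYC over WT, 30 of them (38.5%) were called higher and 3 (3.85%) lower, where a call is a limma adjusted p under 0.05. Over all 11985 genes tested, 22.2% were called higher and 21.8% lower. The median log2 change of the 78 was 0.32, against -0.01 over all genes tested, and 60 of the 78 had a positive change. Calls went with level. Among the 39 genes with higher levels 24 were called higher and 2 lower, and among the 39 with lower levels 6 and 1. Cut at the same level, 39.0% of the higher of all genes tested were called higher and 23.5% lower. For the lower ones these shares were 13.3% and 20.9%. The part of level in the result was not tested. Of the 29 MRPS genes, 13 rose and 0 fell, and of the 49 MRPL genes, 17 rose and 3 fell. Both sets had a median of 0.32. Genes with a bacterial relative (18 higher and 2 lower of 45) and those known from mitochondria only (12 and 1 of 33) had medians of 0.31 and 0.33. On the values as deposited the counts were 63 higher and 0 lower, where the median of all genes was shifted by 0.47. Without MYC replicate 2 they were 19 higher and 2 lower, and with the replicates of WT and of MYC_Zab taken as 1 sample each they were 18 and 1.

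The largest rise was that of MRPS34, a protein of the small subunit known from mitochondria only, at chr16:1821896-1823135 on the minus strand (hg19, as are all gene positions here). It had 224 and 209 CPM in MYC, against 94.5 and 83.2 CPM in WT, a log2 change of 1.28 ± 0.11 (SE, adjusted p = 1.25e-10). Both MYC libraries stood above every library of the other groups, where MYC_Zab had 76.0 and 70.3 CPM and Zab 156 and 141 CPM. MRPS27, a small-subunit protein of the pentatricopeptide-repeat kind, whose repeats are known to bind RNA, lies at chr5:71515230-71616067 and spans 101 kb. It had 247 and 238 CPM in MYC, against 104 and 120 in WT (log2 change 1.11 ± 0.09, adjusted p = 1.92e-10). MRPS26, another small-subunit protein known from mitochondria only, had 72.4 and 67.7 CPM in MYC, against 33.2 and 30.6 in WT (1.11 ± 0.17, adjusted p = 7.26e-06). All 3 more than doubled. Genes named for the size of a change were taken from those whose groups do not overlap, so that is no further support for them.

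The next largest rises were in genes with bacterial relatives. MRPS2, of the small subunit, had 204 and 219 CPM in MYC, against 110 and 101 in WT (0.99 ± 0.10, adjusted p = 5.21e-09). MRPL4, whose bacterial counterpart lines the tunnel through which the new chain leaves, had 175 and 171 CPM in MYC, against 96.1 and 81.8 in WT (0.96 ± 0.11, adjusted p = 5.38e-08). MRPL2, whose bacterial counterpart sits near the centre that joins amino acids, had 109 and 91.3 CPM in MYC, against 51.6 and 54.8 in WT (0.90 ± 0.14, adjusted p = 7.46e-06). MRPL12, which forms the stalk that brings translation factors to the ribosome, rose by 0.86 ± 0.10, and MRPS12, of the decoding centre, by 0.53 ± 0.15. MRPL11, at the base of that stalk, rose by 0.33 ± 0.12 (adjusted p = 0.0233).

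All 3 genes that fell belong to the large subunit. MRPL24 had 75.2 and 68.2 CPM in MYC, against 115 and 112 in WT (-0.65 ± 0.11, adjusted p = 1.8e-05). MRPL53, known from mitochondria only, had 24.5 and 30.8 CPM in MYC, against 45.8 and 36.3 in WT (-0.55 ± 0.19, adjusted p = 0.0173). MRPL18 had 85.2 and 71.8 CPM in MYC, against 101 and 111 in WT (-0.43 ± 0.12, adjusted p = 0.00632). On the values as deposited none of the 3 was called, with changes of -0.16 (adjusted p = 0.214) in MRPL24, -0.07 (adjusted p = 0.756) in MRPL53 and 0.07 (adjusted p = 0.679) in MRPL18. MRPL3, one of the highest of the 78, had 181 and 179 CPM in MYC, against 166 and 181 in WT (0.05 ± 0.09, adjusted p = 0.665), and MRPL44, a relative of RNase III enzymes, had a change of 0.12 ± 0.16 (adjusted p = 0.556).

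**Figure D2:**
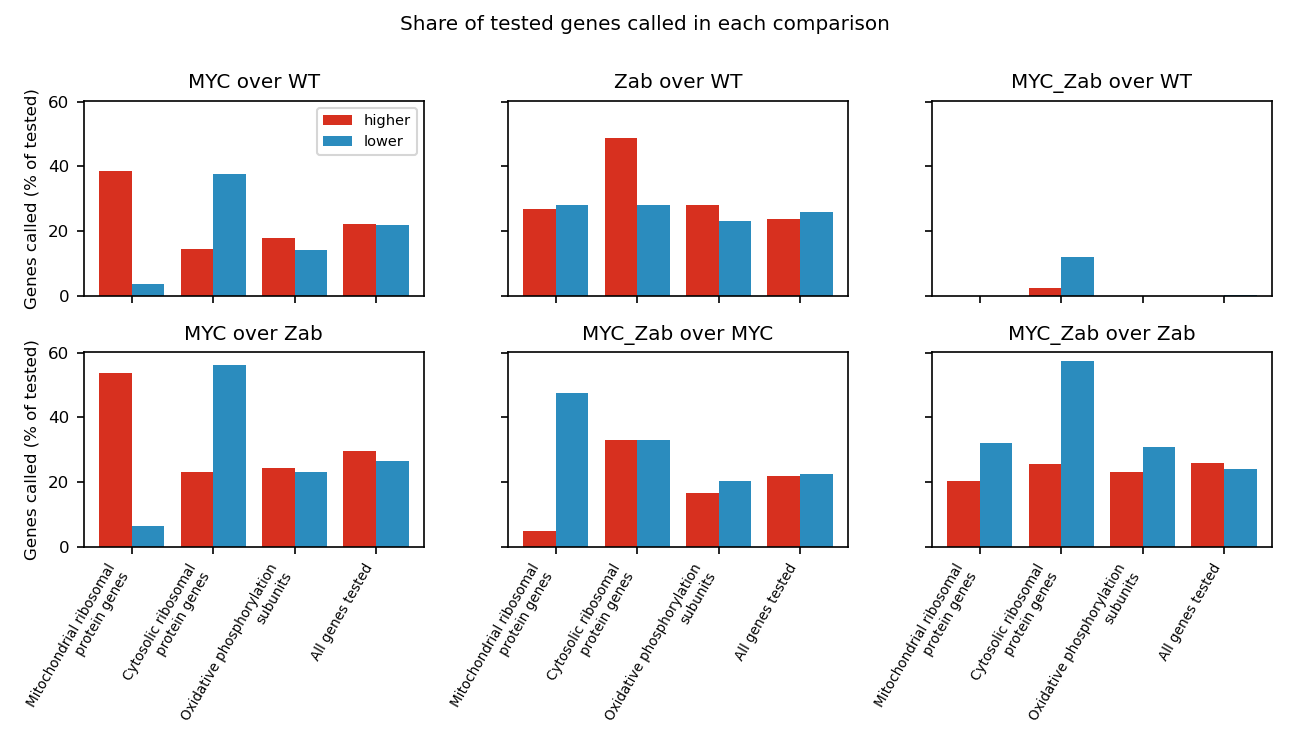
Percent of tested genes called higher (red) and lower (blue) at an adjusted p under 0.05 in 6 comparisons, for the 78 mitochondrial ribosomal protein genes, the genes for cytosolic ribosomal proteins, the nuclear-encoded subunits of oxidative phosphorylation and all genes tested. In MYC over WT the first set has 38.5% higher and 3.85% lower, while the cytosolic ribosomal protein genes have 14.6% higher and 37.8% lower.

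Other genes of mitochondrial translation were counted from 4 lists of 49 genes, all of which were tested. In MYC over WT, 17 of them were called higher and 0 lower, with a median of 0.20. The highest calls were MRM3 (1.08 ± 0.22), which methylates the large ribosomal RNA, GTPBP10 (1.02 ± 0.23), a GTPase of large-subunit assembly, and DDX28 (0.89 ± 0.21), a helicase of the same process. TUFM, the elongation factor that brings transfer RNA to the ribosome, averaged 423 CPM in MYC and 243 CPM in WT (0.80 ± 0.07, adjusted p = 9.68e-11). TFAM, which packages mitochondrial DNA and starts its transcription, and POLRMT, its RNA polymerase, changed by 0.90 ± 0.15 and 0.89 ± 0.12. AURKAIP1, GADD45GIP1 and PTCD3, proteins of the mitochondrial ribosome with other kinds of symbol, changed by 0.54 ± 0.12, 0.40 ± 0.14 and 0.38 ± 0.13, all called. The other two on that list, DAP3 and CHCHD1, were not called, at -0.18 ± 0.10 (adjusted p = 0.166) and -0.23 ± 0.21 (adjusted p = 0.414). Nuclear-encoded subunits of oxidative phosphorylation join those that mitochondrial ribosomes make, and of 78 tested, 14 were called higher and 11 lower, with a median of 0.03. Of 82 tested genes for cytosolic ribosomal proteins, 12 were called higher and 31 lower, with a median of -0.07. The shares over all genes tested were 22.2% higher and 21.8% lower.

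By its labels the second comparison asks how these genes differed with Zab alone, but ADAR averaged 551 CPM in Zab and 33735 in WT. It is therefore given as a difference between libraries, and the part of ADAR in it was not tested. The genes split: 21 of the 78 were called higher and 22 lower in Zab over WT, with a median log2 change of -0.07. Over all genes tested, 23.8% were called higher and 25.9% lower, so the share of calls was close to the background in both directions. The balance depended on the scaling, with 9 higher and 34 lower on plain library totals and 1 higher and 56 lower on the values as deposited. Without WT replicate 2 there were 13 higher and 16 lower. Beside this stands the lower share of coding reads in Zab, given above, whose part in the result was not tested.

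Calls differed with the span of the gene. Of the 25 genes of up to 5 kb, 13 were called higher and 2 lower, with a median of 0.28. Of the 38 genes of 5 to 20 kb, 7 were called higher and 12 lower, with a median of -0.21, and of the 15 genes over 20 kb, 1 was called higher and 8 lower, with a median of -0.48. The same trend was seen over all genes tested, of which 40.2% were called higher and 9.31% lower in the first bin, 32.0% and 18.5% in the next and 17.3% and 32.1% over 20 kb. Their medians were 0.37, 0.16 and -0.21 in these 3 bins, so the median of the 78 was the lower one in each bin, a difference that was not tested. Across genes, which are not independent replicates, the Spearman correlation of span and log2 change was -0.44 over the 78 and -0.30 over all genes tested. In MYC over WT the medians of the 78 in the 3 bins were 0.33, 0.30 and 0.38, with a correlation of -0.0047. Level moved with the same split: of the 39 genes with higher levels, 17 were called higher and 6 lower in Zab over WT, and of the 39 with lower levels, 4 were called higher and 16 lower. Of all genes tested, cut at the same level, 45.2% of the higher ones were called higher and 24.4% lower, and of the lower ones 12.4% and 26.7%. Its part in the result was not tested.

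**Figure D3:**
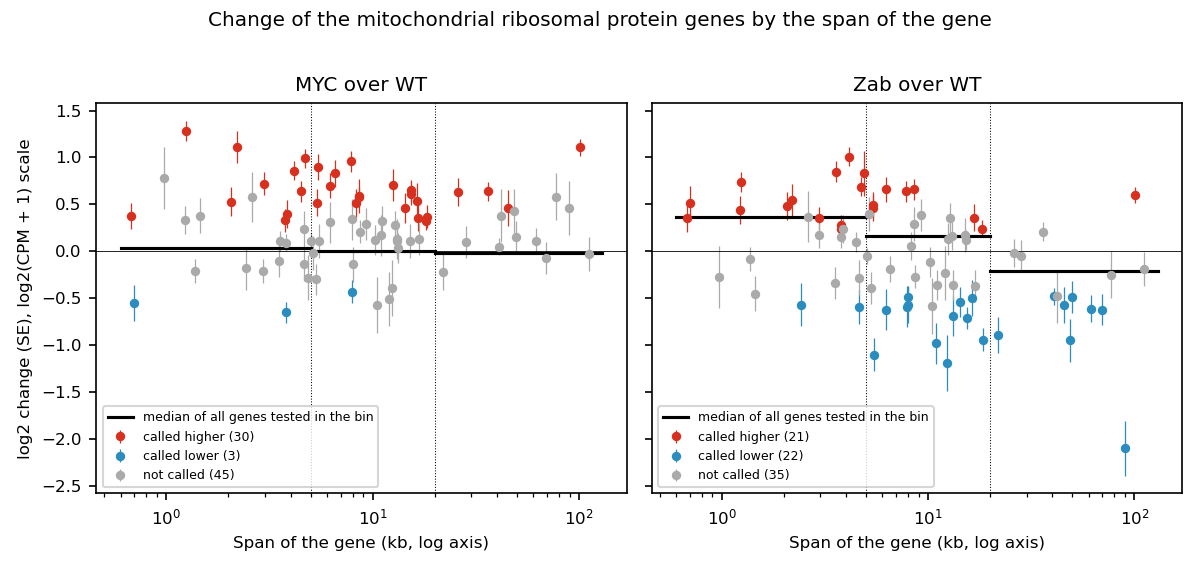
Log2 change (points, with SE bars) of the 78 genes against the span of the gene in kb (log axis) in MYC over WT and in Zab over WT, with called genes in colour and the median of all genes tested in each span bin as a black line. In MYC over WT the called genes lie above 0 at every span except for 3, whereas in Zab over WT they pass from mostly higher at up to 5 kb to mostly lower over 20 kb.

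The largest rises in Zab were in short genes. MRPL12, of 4.15 kb at chr17:79670397-79674547, had 207 and 188 CPM in Zab, against 103 and 91.7 in WT (1.01 ± 0.10, adjusted p = 5.9e-09). MRPL28, of 3.57 kb and with a bacterial relative, had 186 and 197 CPM in Zab, against 115 and 96.7 in WT (0.85 ± 0.11, adjusted p = 4.25e-07). MRPL54, known from mitochondria only, had 33.6 and 34.5 CPM in Zab, against 21.3 and 16.4 in WT (0.83 ± 0.24, adjusted p = 0.0054). MRPS34 rose by 0.74 ± 0.11, MRPS2 by 0.69 ± 0.10 and MRPS18B by 0.66 ± 0.11. MRPS27 was the one gene over 20 kb that was called higher, with 170 and 169 CPM in Zab, against 104 and 120 in WT (0.60 ± 0.09, adjusted p = 8.03e-06).

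The largest fall was that of MRPL1, which builds the mobile stalk beside the exit site for transfer RNA. The gene spans 89.96 kb at chr4:78783984-78873939. It had 2.996 and 4.25 CPM in Zab, against 22.3 and 15.6 in WT, and 23.2 and 26.2 in MYC_Zab and 28.3 and 24.1 in MYC, so Zab stood far below the 6 other libraries. The log2 change was -2.10 ± 0.29 (adjusted p = 8.79e-07), a ratio of mean CPM of 0.191. The lowest of these values, 2.996 CPM in Zab, rested on only 5 recovered reads. MRPS36 had 6.59 and 13.8 CPM in Zab, against 19.0 and 28.1 in WT (-1.19 ± 0.30, adjusted p = 0.00177). Its protein is now counted as part of the 2-oxoglutarate dehydrogenase complex rather than of the ribosome, under the symbol KGD4. MRPL32, which is known to be cut to its mature form by a protease of the inner membrane, had 21.6 and 18.1 CPM in Zab, against 44.5 and 42.7 in WT (-1.10 ± 0.18, adjusted p = 1.66e-05).

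MRPL50, MRPL42 and MRPL30 followed, with changes of -0.98 ± 0.22, -0.95 ± 0.23 and -0.94 ± 0.12. MRPL30 had the most reads of the 3, with 49.1 and 49.4 CPM in Zab, against 93.9 and 97.4 in WT (adjusted p = 3.44e-07). MRPL3, which spans 40.8 kb, changed by -0.48 ± 0.09 (adjusted p = 8.9e-05), with 119 and 130 CPM in Zab, against 166 and 181 in WT. MRPS6, of 69.5 kb, changed by -0.62 ± 0.17, and its counted exons overlap the gene SLC5A3 on the same strand, so reads could be shared between them.

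**Figure D4:**
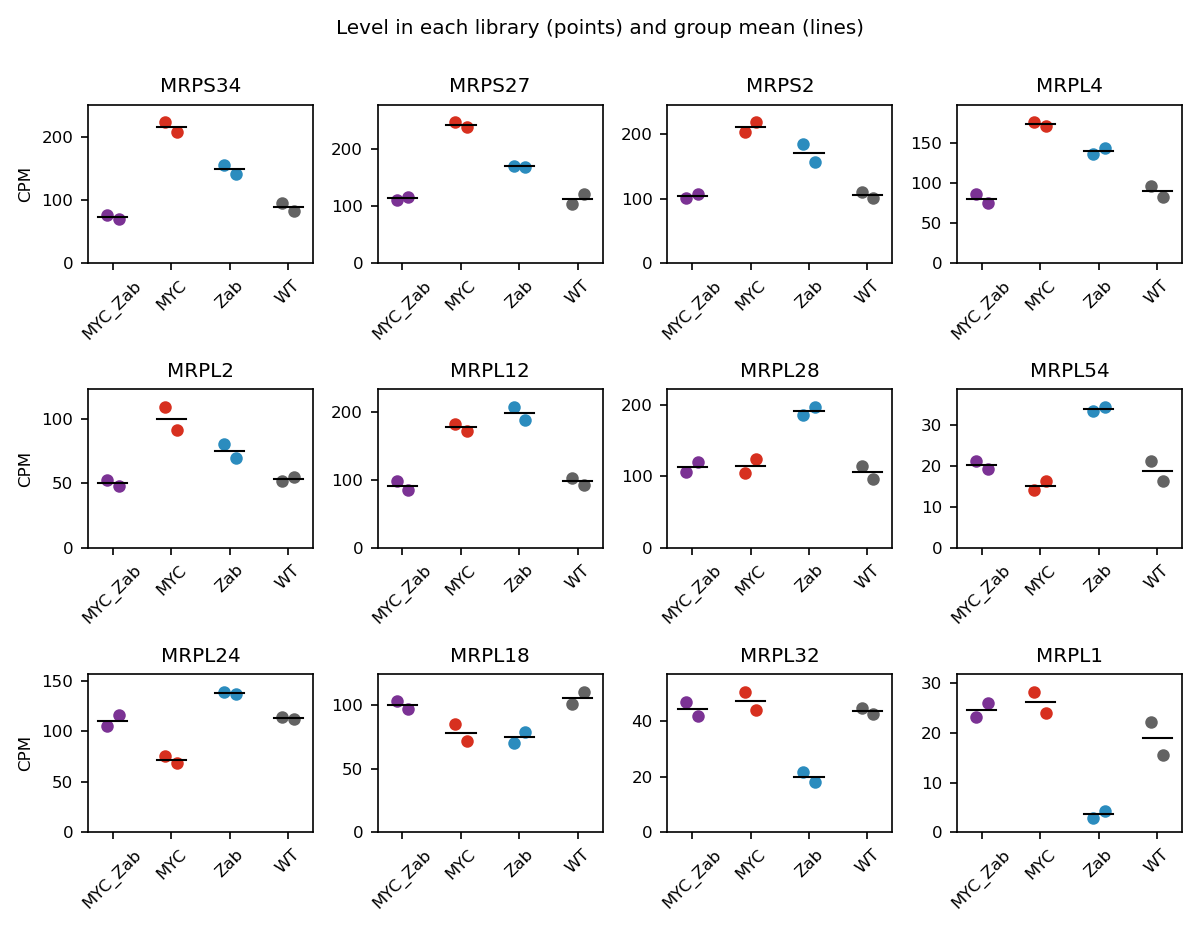
CPM of 12 of the named genes in each library (points) with the mean of each group (lines), for MYC_Zab, MYC, Zab and WT. MRPS34, MRPS27, MRPS2, MRPL4 and MRPL2 are highest in MYC and next in Zab, MRPL12, MRPL28, MRPL54 and MRPL24 are highest in Zab, and MRPL32 and MRPL1 are lowest in Zab.

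In the other lists, Zab over WT gave 11 genes called higher and 15 lower of the 49, with a median of -0.06. Of the 5 genes of mitochondrial transcription, 4 fell and 1 rose; the falls included MTERF1 (-1.92 ± 0.30), TEFM (-1.24 ± 0.38) and TFAM (-1.03 ± 0.15). LRPPRC, which keeps mitochondrial messages stable, averaged 161 CPM in Zab and 284 CPM in WT (-0.81 ± 0.07). AURKAIP1, of the small subunit, rose by 0.77 ± 0.12. Of the 82 tested genes for cytosolic ribosomal proteins, 40 were called higher and 23 lower. The shares over all genes tested were 23.8% higher and 25.9% lower.

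MYC and Zab were also compared with each other, so that they need not be read through the WT libraries they share. ADAR averaged 453 CPM in MYC and 551 in Zab, far below its level in WT, while the gene MYC averaged 6568 and 981 CPM. Of the 78 genes, 42 were called higher and 5 lower in MYC over Zab, where 29.6% of all genes tested were called higher and 26.7% lower, and the median log2 change was 0.40, against 0.05 over all genes. Of the MRPS genes 20 of 29 were higher and 0 lower. All 15 of the 78 over 20 kb had a positive change, and 13 were called. Among all 7351 tested genes over 20 kb, 4332 had a positive change, and 35.3% were called higher and 21.5% lower. Of the 78, MRPL1 differed most, at 7.24 times its Zab mean in MYC (2.57 ± 0.29, adjusted p = 2.04e-08). It was followed by MRPL42 (1.38 ± 0.23), MRPL30 (1.32 ± 0.12) and MRPL19 (1.32 ± 0.12). MRPL19, with a bacterial relative, had 132 and 133 CPM in MYC and 54.5 and 50.4 CPM in Zab. The 5 genes that were lower in MYC were MRPL54 (-1.12 ± 0.24), MRPL53 (-1.06 ± 0.19), MRPL24 (-0.94 ± 0.11), MRPL28 (-0.74 ± 0.11) and MRPL17 (-0.37 ± 0.13). On the values as deposited none of the 5 was called lower, where the median of all genes tested was shifted by 1.11 towards MYC.

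In the libraries labelled MYC_Zab no gene of the 78 passed the test against WT. In MYC_Zab over WT, 0 of them were called higher and 0 lower by limma, edgeR and DESeq2 alike, against 0.134% and 0.467% of all genes tested by limma. At an unadjusted p under 0.05 there were 10, or 12.8% of them, against 7.72% of all genes tested. The log2 changes ran from -0.66 to 0.41 with a median of -0.07. On the values as deposited 9 were called higher and 0 lower, with a median of 0.20, where the median of all genes was shifted by 0.27. As a check on how close the libraries were, the chi-square statistic per gene over the 78 lay between 2.02 and 2.85 for pairs of a MYC_Zab and a WT library, against 1.62 to 2.34 between the replicates of a group. Pairs of other groups gave 8.81 to 23.0.

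MYC_Zab over MYC asks, by its labels, what Zab did where MYC was overexpressed, but MYC itself averaged 757 CPM in MYC_Zab and 6568 in MYC. Of the 78, 4 were called higher and 37 lower, where 21.9% of all genes tested were called higher and 22.6% lower, and the median log2 change was -0.36, against 0.02. This comparison shares the MYC libraries with MYC over WT. MRPS34 had 76.0 and 70.3 CPM in MYC_Zab and 224 and 209 in MYC (-1.55 ± 0.11, adjusted p = 2.27e-12), MRPL4 changed by -1.11 ± 0.11, MRPS27 by -1.09 ± 0.09 and MRPS2 by -1.02 ± 0.10. MRPL2 and MRPL12 changed by -0.98 ± 0.14 and -0.95 ± 0.10. The 4 that were higher were MRPL24 (0.62 ± 0.11), MRPL53 (0.46 ± 0.19), MRPL18 (0.35 ± 0.12) and MRPL51 (0.35 ± 0.13), a count that was 1 without either MYC_Zab library and 2 without MYC replicate 2. Of the other 49 genes, 0 were called higher and 15 lower, among them TUFM (-0.86 ± 0.07).

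MYC_Zab over Zab would by its labels ask what MYC overexpression did beside Zab, but MYC averaged 757 CPM in MYC_Zab and 981 in Zab, so it is given as a difference between libraries only. It gave 16 genes called higher and 25 lower, against 25.8% and 24.1% of all genes tested, with a median of -0.05. MRPL1 was higher (2.49 ± 0.29), as were MRPL42 (1.36 ± 0.23), MRPS36 (1.21 ± 0.30), MRPL32 (1.12 ± 0.18) and MRPL50 (1.07 ± 0.22). MRPL12 was lower (-1.11 ± 0.10), as were MRPS34 (-1.01 ± 0.11) and MRPL4 (-0.79 ± 0.11). Plain library totals turned the balance to 28 higher and 9 lower, and the values as deposited to 68 higher and 0 lower. Without MYC_Zab replicate 1 there were 16 lower.

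The interaction subtracts the change in Zab over WT from that in MYC_Zab over MYC, and by the labels would test whether Zab went with a different change beside MYC overexpression. Since the MYC and ADAR levels of MYC_Zab were near those of WT, it cannot be read that way from these libraries. It was called positive in 10 genes and negative in 30, against 28.3% and 24.8% of all genes tested. The positive count was 6 without either MYC_Zab library and 5 without MYC replicate 2. The median was -0.23, against 0.11 over all genes, and the 78 stood 0.34 below the median of all genes. The balance depended on the scaling, with 22 positive and 21 negative and a median of 0.06 on plain library totals, and 25 and 16 with a median of 0.17 on the values as deposited. The most negative was MRPS34, at -2.29 ± 0.15 (adjusted p = 6e-13), which was lower in MYC_Zab than in MYC but higher in Zab than in WT. MRPL12 (-1.96 ± 0.15) and MRPL4 (-1.75 ± 0.16) had the same pattern. The most positive were MRPL1 (2.02 ± 0.41), MRPS36 (1.59 ± 0.42) and MRPL32 (1.01 ± 0.26), whose falls in Zab over WT had no called counterpart in MYC_Zab over MYC.

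MRPS18A, MRPS18B and MRPS18C are paralogues of 1 bacterial protein and take different places in the ribosome, MRPS18A in the large subunit despite its name. MRPS18A had 52.6 and 61.0 CPM in MYC_Zab, 78.04 and 67.9 in MYC, 69.5 and 77.0 in Zab and 56.8 and 56.5 in WT. MRPS18B had 103 and 94.3 CPM in MYC_Zab, 169 and 135 in MYC, 156 and 162 in Zab and 99.7 and 101 in WT. MRPS18C had 32.2 and 30.1 CPM in MYC_Zab, 34.0 and 29.3 in MYC, 16.8 and 15.4 in Zab and 27.4 and 23.1 in WT. MRPS18A and MRPS18B were called higher in both MYC and Zab over WT. MRPS18C was called lower in Zab over WT (-0.62 ± 0.22, adjusted p = 0.0217) and had a change of 0.31 ± 0.22 in MYC over WT (adjusted p = 0.257).

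Many of the 78 genes share their promoter region with a neighbour. With starts taken from the counted hg19 transcripts, 28 had a gene on the other strand starting within 1 kb, and for 25 of them (32.1%) that neighbour was tested too, against 12.9% of all tested genes. MRPL46 and MRPS11 are each other's neighbour, so there were 24 tested pairs. Counting was by strand, per the file headers, so the 2 genes of a pair can be told apart. In Zab over WT both genes of a pair were called in the same direction in 9 pairs and in opposite directions in 1, and over all 783 tested pairs in 197 and 27. The exception was MRPS27, which rose by 0.60 while PTCD2, a mitochondrial RNA-binding protein, changed by -1.81 ± 0.30.

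In MYC over WT both genes of a pair were called in 4 of the pairs, in the same direction in 1 and in opposite directions in 3, against 97 and 43 over all tested pairs. MRPS12 and SARS2, which charges mitochondrial transfer RNA with serine, rose together, by 0.53 and 0.61. MRPL2 rose by 0.90 while KLC4, a kinesin light chain, changed by -1.02 ± 0.32, and MRPL18 changed by -0.43 while TCP1, a subunit of the cytosolic chaperonin, changed by 0.23 ± 0.06. The third pair, named after its values were seen, was MRPL47, which rose by 0.54, and NDUFB5, a subunit of respiratory complex I, at -0.84 ± 0.23. A difference between the 24 pairs and all pairs was not tested.

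Copies limit how exactly some of these levels are known. RefSeq lists 106 pseudogenes of 42 of the 78 genes, and reads of near-identical copies could have been split or lost in the authors' alignment. MRPS24 shares its strand with the readthrough gene URGCP-MRPS24. In 19 genes the counted transcript differed between libraries, among them MRPS34, MRPS2, MRPS27 and MRPL24; over the 59 genes with the same transcript in every library, 20 were called higher and 2 lower in MYC over WT, with a median of 0.24, and 15 higher and 19 lower in Zab over WT.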

How the data were processed

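The deposited values are a signal per coding gene. Per the file headers, the authors used HOMER to count tags on the opposite strand, over the exons of coding genes in RefSeq for hg19, and kept 1 transcript per symbol in each library. Also named, per the submitters' processing notes, are STAR, bedtools 2.29.2, SAMtools 1.11, Trim Galore 0.6.6 and the builds hg19 and dm6. Within a library every value was a whole multiple of a step between 0.204 and 0.259, and dividing by it gave whole reads for 100% of values (within 0.02 reads). What the step rests on is not stated there. Between 77.2% and 82.7% of values of 1 to 20 reads were even, which means that reads tended to come in pairs.

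From these values CPM was computed with TMM scaling (edgeR 4.0.16). Genes were kept by filterByExpr at a minimum of 10 reads. Limma 3.58.1 (R 4.3.3) was run on log2(CPM + 1) with a trend, in one fit of all 8 libraries with 4 residual degrees of freedom and no replicate block, for 7 comparisons. A call is a Benjamini-Hochberg adjusted p under 0.05 over all 11985 genes. Changes are on the log2(CPM + 1) scale, which understates those of low genes. The method was tested on simulated data. Few genes changed in them, so that test does not cover the scaling where many genes change, as between most of these groups. Alternatives included edgeR's quasi-likelihood test, DESeq2 1.42.0, other scalings, filters and pseudocounts, and leaving out each library.

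The genes and the 4 lists were chosen with earlier results of these data known. Named genes are the 6 largest called rises and falls per comparison (3 for the interaction) with a mean of 5 CPM or more and groups that do not overlap, the highest and lowest per kb, MRPL3, MRPL11, MRPL12, MRPL44, MRPS2, MRPS6, MRPS12 and the MRPS18 genes, the 3 largest calls of each list, and neighbours of named genes. Symbols of 77 of the 78 genes were found in RefSeq's GRCh38.p14 table, which gave the pseudogenes.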

Additional observations from a re-analysis of the deposited data

Results flagged for a closer look

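By their labels, Zab over WT and MYC_Zab over MYC are the same contrast without and with MYC overexpression. By the interaction term of limma they differed in 22 of the 32 genes of the 78 that the naming rule chose. That rule picks genes partly by the size of their changes in these data, the interaction included, so this count does not measure the set. Over all 78 the interaction was called positive in 10 and negative in 30. The shares over all genes tested were 28.3% and 24.8%. The interaction was negative, on the log2 scale, in MRPS34 (-2.29), MRPL12 (-1.96), MRPL4 (-1.75), MRPS2 (-1.71), MRPS27 (-1.69), MRPL2 (-1.47), MRPS26 (-1.34), MRPS18B (-1.27), MRPS24 (-1.20), MRPS12 (-1.08), MRPL28 (-0.87), MRPL11 (-0.77), MRPS18A (-0.72) and MRPL37 (-0.61). It was positive in MRPL1 (2.02), MRPS36 (1.59), MRPL32 (1.01), MRPL42 (0.94), MRPL50 (0.90), MRPL18 (0.84), MRPL51 (0.43) and MRPL3 (0.36). Each was called at an adjusted p under 0.05, the least firmly MRPL51 (adjusted p = 0.0474). MYC averaged 757 CPM in MYC_Zab and 6568 in MYC, and MYC_Zab was near WT in both MYC and ADAR, so the contrasts may not be what the labels say. The part of this in the result was not tested.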

How the results depend on the processing

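With plain library totals in place of TMM, Zab over WT gave 9 genes higher and 34 lower, MYC_Zab over Zab 28 and 9, and the interaction 22 positive. On the values as deposited, higher and lower counts were 63 and 0 in MYC over WT, 1 and 56 in Zab over WT, 9 and 0 in MYC_Zab over WT, 75 and 0 in MYC over Zab, 1 and 49 in MYC_Zab over MYC, 68 and 0 in MYC_Zab over Zab, and 25 and 16 in the interaction. There the median change of all genes was 0.47, -0.63, 0.27, 1.11, -0.19, 0.89 and 0.49 in the same order, and the 78 genes stood 0.34, -0.06, -0.06, 0.40, -0.39, -0.04 and -0.33 from it, near their distances with TMM. The median of the 78 turned sign in MYC_Zab over Zab (0.19 with totals, 0.85 as deposited), the interaction (0.06 and 0.17) and MYC_Zab over WT (0.20 as deposited). No called gene of the 78 turned sign with library totals. On the values as deposited 1 of the 33 called turned in MYC over WT, 13 of 43 in Zab over WT, 4 of 47 in MYC over Zab and 23 of 41 in MYC_Zab over Zab, where 15 were then called in the other direction. Among the named genes these were in MYC over WT MRPL18 (0.07), in Zab over WT MRPS12 (-0.15) and MRPS18A (-0.26), in MYC over Zab MRPL17 (0.75), MRPL24 (0.18), MRPL28 (0.38) and MRPL53 (0.04), and in MYC_Zab over Zab MRPL11 (0.46), MRPL28 (0.15), MRPL4 (0.11), MRPL54 (0.15), MRPS12 (0.35), MRPS18A (0.53), MRPS18B (0.22) and MRPS2 (0.19). The scale factor itself shifts every gene, as the medians show.

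Counting the WT and MYC_Zab replicates as 1 sample each gave 18 higher and 1 lower in MYC over WT, 11 and 12 in Zab over WT, 1 higher in MYC_Zab over MYC, 14 lower in MYC_Zab over Zab and 4 positive in the interaction, with fewer samples in the fit. DESeq2 gave 13 and 14 in Zab over WT, 2 higher in MYC_Zab over MYC and 5 positive in the interaction; the cause was not tested. Leaving out each library in turn gave 19 to 32 higher and 2 to 3 lower in MYC over WT, 13 to 20 and 16 to 27 in Zab over WT, 28 to 41 and 4 to 7 in MYC over Zab, 1 to 4 and 26 to 40 in MYC_Zab over MYC, 12 to 20 and 16 to 26 in MYC_Zab over Zab, 5 to 13 and 28 to 34 in the interaction, and 0 in MYC_Zab over WT. A group left with 1 library was assumed to vary like the others. The lowest count of rises in MYC over WT came without MYC replicate 2 (19), and in Zab over WT without WT replicate 2 (13). With the replicate number as a block, the counts were 32 and 3 in MYC over WT and equal to those without it elsewhere. Deviations of same-numbered libraries correlated between -0.022 and 0.0098, so no pairing by number was seen. A shared deviation smaller than the spread between replicates could be missed. Both Zab libraries left out, an alternative chosen after seeing the data, gave 32 and 3 in MYC over WT. With edgeR on the recovered reads the counts were 32 and 3 in MYC over WT and 20 and 22 in Zab over WT. Other pseudocounts, filters and division by transcript length kept every count within 1.5 times of that reported.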
